A study of Desmophyllum pertusum with 36 samples.

Results

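The response to low pH was followed within a single colony, colony 4, of Lophelia pertusa (listed in the labels as Desmophyllum pertusum). The colony is represented by 6 of the 18 libraries of the study, 3 from fragments held at pH 7.6 and 3 from fragments held at pH 7.9, with polyps sampled at weeks 2, 4.5 and 8.5 at each pH. Its members were the transcripts with at least 10 counts in at least 3 of these 6 libraries, which kept 50425 of the 75743 transcripts listed (66.6%). The comparison was paired by week, so that each library at pH 7.6 was set against the library of the same week at pH 7.9. The other 12 libraries came from colonies 1 and 3 under the same scheme and serve here only for comparison. All libraries were made from total RNA of polyps, and there was 1 library for each colony, pH and week. Colony 4 is 1 genetic individual, and the labels do not say how its fragments were distributed over tanks, so the p-values measure only the spread between these libraries. The 3 weeks are repeated samples of that colony. In bulk polyp RNA, fewer cells of a type and less RNA per cell cannot be told apart.

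Lophelia pertusa is a reef-building stony coral of cold and dark water that lives without photosynthetic algae and feeds on prey. Stony corals build their aragonite skeleton in a space beneath the tissue, where ion pumps and bicarbonate transporters raise the pH and the carbonate level above those of seawater. Lower seawater pH reduces the carbonate available around the coral. The deposited table lists transcripts by number and does not pair them with gene names, so the roles of the transcripts below are not given and no pathway or cell type list could be counted. At most 2 transcripts that were higher and 2 that were lower are named per comparison.

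The colony 4 libraries held 19971946 to 25135503 counts, and 65458 to 68277 transcripts had at least 1 count. The week 2 library at pH 7.6 stood apart in 3 measures. The most abundant transcript took 1.81% of its counts against 3.83 to 5.24% in the other 5 libraries, and its 100 most abundant transcripts took 16.5% against 23.9 to 26.5%. Lane 1 gave 81.8% of its counts against 50 to 51.6% in the others. The counts of transcripts that passed the tests for pH and for week in colony 4 are therefore also given without week 2. Most other results, among them the principal components and the sums of squares, are given with week 2 only.

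The colony label held for all 6 libraries, but a library of another label resembled them. Spearman's correlation of log2 CPM (the share of a library's counts, after scaling by the trimmed mean of M values) between colony 4 libraries, across the 57053 transcripts that passed the filter over all 18 libraries, was 0.913 to 0.97, with a median of 0.949. The week 2, pH 7.9 library labelled colony 3 had a median correlation of 0.958 with the 6, and the median for the other 11 libraries lay between 0.838 and 0.889. Transcripts with at least 100 counts in a library and 0 in the other numbered 0 to 7 between colony 4 libraries and 0 to 2 between these and that colony 3 library, against medians of 46 to 111.5 for the other 11. At weeks 4.5 and 8.5, the pH 7.9 libraries labelled colony 1 correlated better with the pH 7.6 libraries of colony 3 (0.925 and 0.911) than with those of their own label (0.872 and 0.891), and those labelled colony 3 better with colony 1 (0.947 and 0.956 against 0.857 and 0.816). Values from colonies 1 and 3 are therefore read by pH over both labels. The test of the difference between colonies and a pair of libraries from colony 1 kept the labels. The main counts and shares are also given without the library that resembled colony 4.

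To see how far pH set the expression of colony 4 apart, the 6 libraries were compared over all 50425 transcripts. The 3 libraries at pH 7.9 lay closer together (Spearman 0.947 to 0.958) than the 3 at pH 7.6 (0.936 to 0.941). Libraries of the same week and different pH correlated at 0.91 to 0.957, with the lowest value at week 2. Libraries that differed in both pH and week correlated at 0.898 to 0.965. The week 4.5 library at pH 7.6 correlated better with each of the 3 libraries at pH 7.9 (0.957, 0.957 and 0.965) than with the other libraries at pH 7.6 (0.937 and 0.941), so the libraries did not group by pH alone. The first principal component (40.8% of the variance) ran from the week 2 library at pH 7.6 to the week 4.5 library at pH 7.9. At each week the pH 7.6 library lay on the same side of its pH 7.9 partner along it. Of the sum of squares of log2 CPM, pH took 29.6% on 1 degree of freedom, week took 40.9% on 2, and the remaining 29.6% lay on 2.

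**Figure D1:**
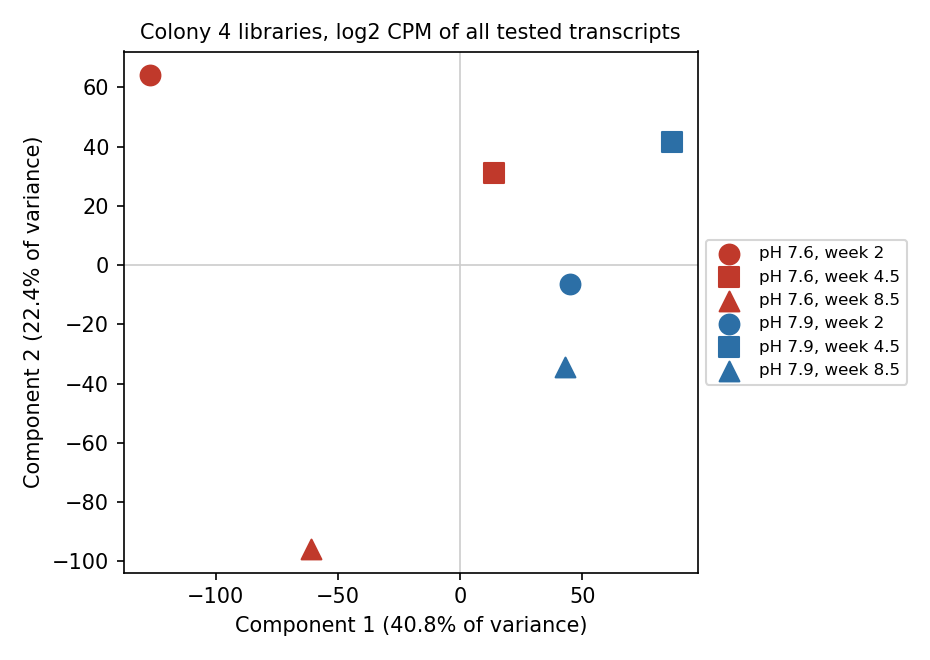
Principal components 1 and 2 of log2 CPM over the 50425 tested transcripts, with 1 point for each colony 4 library (colour, pH; shape, week). The week 2, pH 7.6 library lies at -127 on component 1 and the week 4.5, pH 7.9 library at 86.5, and in each week the pH 7.6 library lies to the left of its pH 7.9 partner.

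Between the pH levels, 9 transcripts rose and 5 fell at pH 7.6 (edgeR quasi-likelihood test with week as the pairing term, Benjamini-Hochberg adjusted p below 0.05), which is 0.0278% of the 50425 tested (0.0178% higher and 0.00992% lower). The 9 that rose had log2 fold changes of 2.11 to 4.96 (median 3.03), and the 5 that fell had -3.7 to -2.09 (median -3.15). Summed over the 9, the level was 326 to 3290 CPM in the pH 7.6 libraries and 40.3 to 234 CPM in the pH 7.9 libraries. Summed over the 5, it was 4.85 to 37.9 CPM against 27.6 to 214 CPM. An unadjusted p below 0.05 was found for 6980 transcripts (13.8%), and the adjusted p of the 14 lay between 0.0349 and 0.0453. The next in rank had adjusted p-values of 0.0502, and 45 transcripts (30 higher and 15 lower) lay below 0.06.

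The number of calls moved with the pairing and with the weeks that were used. Without week as a term edgeR called 0 transcripts (5946 at an unadjusted p below 0.05), and in a fit of all 18 libraries it also called 0 (4370 unadjusted). Without week 8.5 it called 3, of which 1 was among the 14. Without week 2 it called 631 (301 higher and 330 lower), with all 14 among them, and without week 4.5 it called 142, with 13 of the 14. DESeq2 called 1068 transcripts (631 higher and 437 lower), limma-voom 70 (49 and 21) and edgeR with robust estimation 81 (53 and 28), each with all 14 among them.

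Transcript_66519 had the largest rise among the 14. It stood at 124, 10.5 and 203 CPM at pH 7.6 in weeks 2, 4.5 and 8.5, and at 4.43, 0.917 and 2.75 CPM at pH 7.9. The groups did not overlap, and in both the lowest library was that of week 4.5. Its mean was 112 ± 96.7 CPM at pH 7.6 and 2.7 ± 1.76 CPM at pH 7.9 (SD, n = 3). This is a rise of 4.96 ± 0.49 in log2 units (SE; edgeR adjusted p = 0.0349).

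Transcript_2635 was the most abundant of the 9 that rose. Its levels were 513, 95.8 and 2370 CPM at pH 7.6 and 33.4, 3.86 and 45.6 CPM at pH 7.9, in the same order of weeks. Every pH 7.6 library lay above every pH 7.9 library, with the week 4.5 library at pH 7.6 the nearest to the other group. The log2 fold change was 4.76 ± 0.42 (SE, edgeR adjusted p = 0.0349). Without week 8.5 it was 4.3 with an adjusted p of 0.0696 in edgeR, above the threshold, and for Transcript_66519 it was 4.29 with 0.0899.

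Transcript_6426 had the largest fall and the lowest level of the 14. It had 5, 22 and 8 counts at pH 7.6 (0.223, 0.923 and 0.33 CPM) and 26, 361 and 90 counts at pH 7.9 (1.29, 17.4 and 4.42 CPM). The groups did not overlap, and week 4.5 was the highest library at each pH. The log2 fold change was -3.7 ± 0.4 (SE, edgeR adjusted p = 0.044). Without week 8.5 the log2 fold change was -3.65 with an adjusted p of 0.217 in edgeR, so the call was lost while the fold stayed within its SE, and without week 4.5 it did not pass the filter.

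Transcript_1396 fell from 5.97, 53 and 8.34 CPM at pH 7.9 to 0.356, 2.56 and 1.32 CPM at pH 7.6. The groups did not overlap, and the week 4.5 library was the highest at each pH. The difference was -3.69 ± 0.38 in log2 units (SE; edgeR adjusted p = 0.0349), and it was -3.24 without week 4.5.

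**Figure D2:**
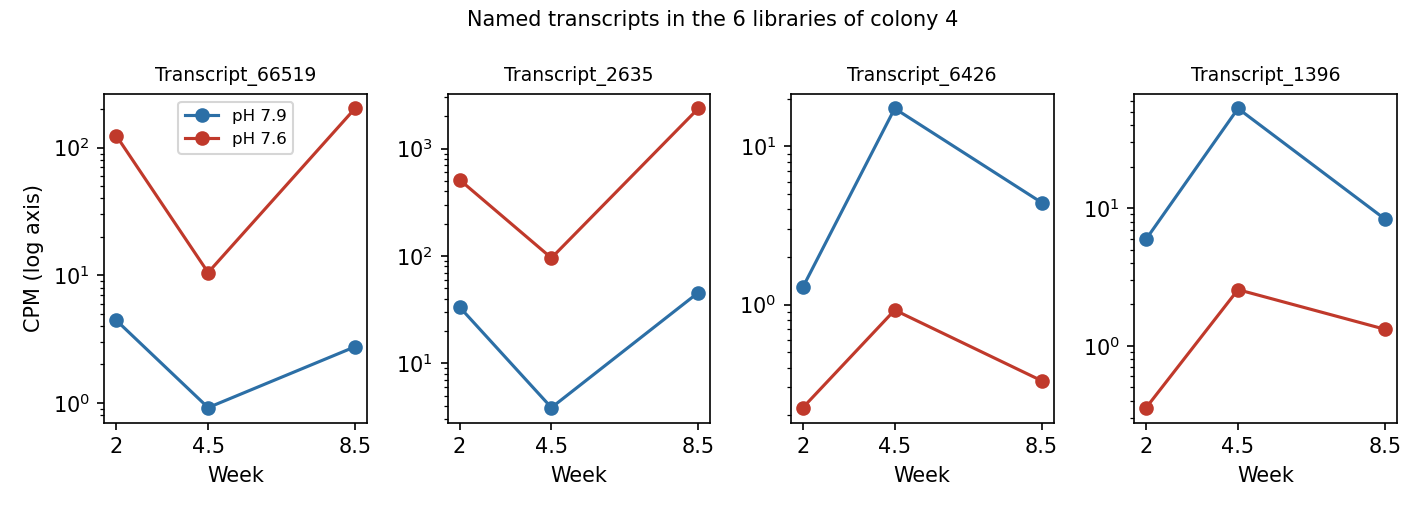
CPM on a log axis against week for the 4 named transcripts, with 1 point for each colony 4 library (red, pH 7.6; blue, pH 7.9). The lines of the 2 pH levels do not cross, with week 4.5 lowest for the 2 that rose and highest for the 2 that fell.

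The other 10 called transcripts showed the same order within each week. Among all 14, the groups did not overlap for 6 of the 9 that rose and 3 of the 5 that fell. Over all tested transcripts, 4862 (9.64%) had every pH 7.6 library above every pH 7.9 library and 4319 (8.57%) had the reverse. In the 5 whose groups overlapped, the ratio within each week still had 1 sign. The test counts a ratio that changes between weeks as error, so it favours transcripts with like ratios in all weeks. The shared sign is therefore no separate result. The weekly ratios of the 9 ran from 1.91 to 6.16 on the log2 scale and those of the 5 from -4.32 to -1.9.

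**Figure D3:**
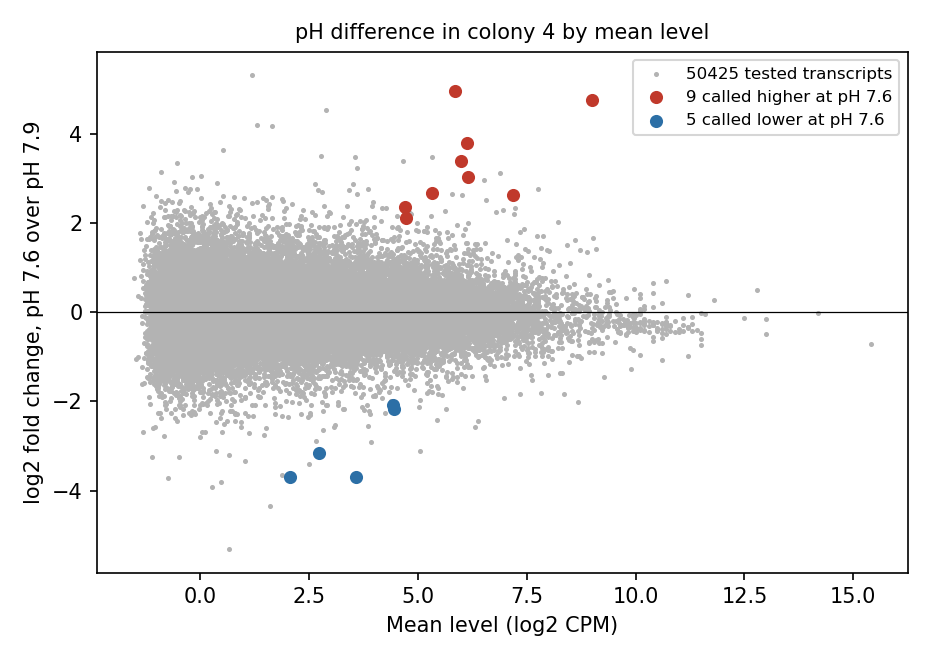
Log2 fold change (pH 7.6 over pH 7.9) against mean log2 CPM for the 50425 tested transcripts of colony 4 (grey), with the 9 called higher in red and the 5 called lower in blue. The 9 called higher lie above 4.7 log2 CPM, and the 5 called lower lie between 2.06 and 4.46 log2 CPM.

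Most calls fell among well-covered transcripts. Of the 12606 transcripts with the highest mean level (above 3.74 log2 CPM), 11 were called and 19.4% had an unadjusted p below 0.05, with a median SE of the log2 fold change of 0.223. Of the 12607 with the lowest mean level (below 0.532 log2 CPM), 0 were called by edgeR and 7.65% had an unadjusted p below 0.05, with a median SE of 0.486. Absolute fold changes of at least 2-fold made up 12.9% of the lowest set and 4.57% of the highest. Over all transcripts, 2135 (4.23%) were at least 2-fold higher and 1740 (3.45%) at least 2-fold lower.

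Calls made up 0.0278% of all tested transcripts, so most sets of 100 would hold none. The 100 most abundant transcripts of colony 4 also held none. Their log2 fold changes lay between -1.27 and 0.71 with a median of -0.29, beside a median of -0.03 over all tested, and their lowest adjusted p in edgeR was 0.214. They summed to 137000 to 277000 CPM at pH 7.6 and 233000 to 272000 CPM at pH 7.9. The largest weekly difference was that of week 2 for 84 of the 100, the week whose pH 7.6 library had the lowest share of counts in abundant transcripts. Week 2 also had the widest log2 ratios over all tested transcripts (SD 0.937, against 0.654 at week 4.5 and 0.705 at week 8.5). The matching share of all tested transcripts was not counted, so the 84 is not read as particular to the abundant ones.

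The weekly ratios were examined next, since the sampling times ask when the difference appeared. With 1 library for each pH and week these are values without a test. At week 2, 11915 transcripts (23.6%) differed by at least 2-fold between the pH levels, at week 4.5 it was 5580 (11.1%) and at week 8.5 it was 5998 (11.9%). At week 2, 6209 of these were higher and 5706 lower at pH 7.6. Scaled by library totals alone, the split was 8907 higher to 3463 lower. The median log2 ratio of all transcripts at week 2 was 0.191 on that scale and -0.0586 with the trimmed mean scaling. At weeks 4.5 and 8.5 both scalings gave medians between -0.0571 and -0.000896. At week 4.5, 3034 were higher and 2546 lower, and at week 8.5, 2532 were higher and 3466 lower. Scaled by library totals alone, these splits were 2753 to 2837 and 2282 to 3730. The direction of the week 4.5 split thus depended on the scaling.

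The weeks shared part of their differences. Of the transcripts past 2-fold at week 2, 13.2% were past 2-fold in the same direction at week 4.5 and 16.8% at week 8.5. These made up 28.2% and 33.3% of the lists of those weeks. Over all tested transcripts, 23.6%, 11.1% and 11.9% were past 2-fold in either direction at weeks 2, 4.5 and 8.5. Between weeks 4.5 and 8.5 the shared transcripts were 20.9% of the first list and 19.4% of the second. Weeks 2 and 4.5 shared 853 higher and 720 lower transcripts, and 634 had opposite directions. Weeks 2 and 8.5 shared 1000 and 999 with 365 opposite, and weeks 4.5 and 8.5 shared 534 and 631 with 372 opposite. Across transcripts, Pearson's correlation of the log2 ratios was 0.242 for weeks 2 and 4.5, 0.324 for weeks 2 and 8.5, and 0.193 for weeks 4.5 and 8.5. The libraries of different weeks are separate, but transcripts are not independent replicates.

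The largest single-week ratios that were lower at pH 7.6 in weeks 8.5 and 2 did not recur. Transcript_37382 had 5614 counts at pH 7.9 in week 8.5 (276 CPM) and 36 at pH 7.6 (1.49 CPM), a 185-fold ratio (95% interval 134 to 265, counting error only). In the other 4 libraries it stood at 1.35 to 4.7 CPM, so that a single library was high. Transcript_42896 had 3 counts at pH 7.6 and 291 at pH 7.9 in week 2, a 108-fold ratio (36.7 to 528), and the opposite order at week 4.5 (18.2 CPM at pH 7.6 and 2.85 CPM at pH 7.9).

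Other transcripts with a large ratio in 1 week kept their direction in more weeks. Transcript_64441 had 344 counts at pH 7.6 and 4 at pH 7.9 in week 2, a 77-fold ratio (29.8 to 284), and log2 ratios of 2.27 and 2.07 at weeks 4.5 and 8.5. Its adjusted p over the 3 weeks in edgeR was 0.0912, so it was not called. Transcript_5133 stood at 157 and 65.3 CPM at pH 7.6 in weeks 2 and 4.5, against 6.91 and 2.32 CPM at pH 7.9, and at 5.41 against 3.63 CPM at week 8.5. Its ratio at week 4.5 was 28.2 (21.1 to 38.4). Transcript_49461 was lower at pH 7.6 in all 3 weeks, with 2 counts against 305 at week 4.5, a 176-fold ratio (48.2 to 1460).

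Transcript_66136 was high at pH 7.6 in weeks 2 and 8.5 only. It had 783 counts against 3 at week 8.5 (219-fold, 74.8 to 1070) and 222 against 20 at week 2, and 3 counts at each pH at week 4.5. Its adjusted p over the 3 weeks in edgeR was 0.149. The 6 transcripts named for single weeks were chosen as the largest ratios, and the intervals cover counting error only.

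Whether the pH difference changed steadily over time was tested as a slope of the log2 fold change per week. EdgeR called 0 of 50425 transcripts (0%), and 2790 (5.53%) had an unadjusted p below 0.05. DESeq2 found 33 and limma-voom 0. The lowest adjusted p in edgeR was 0.787, and the median SE of the slope was 0.111 per week. Among the 14 called for pH, slopes ran from -0.14 to 0.31 per week, and the effect grew away from 0 in 9. The pH test used the same 6 libraries and counts a change with week as error. Its calls were thus favoured to have small slopes, and no change with time is read from them. For the 9 that rose, the median log2 ratio was 2.77, 3.08 and 3.55 at weeks 2, 4.5 and 8.5, and for the 5 that fell it was -2.14, -2.65 and -2.58.

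**Figure D4:**
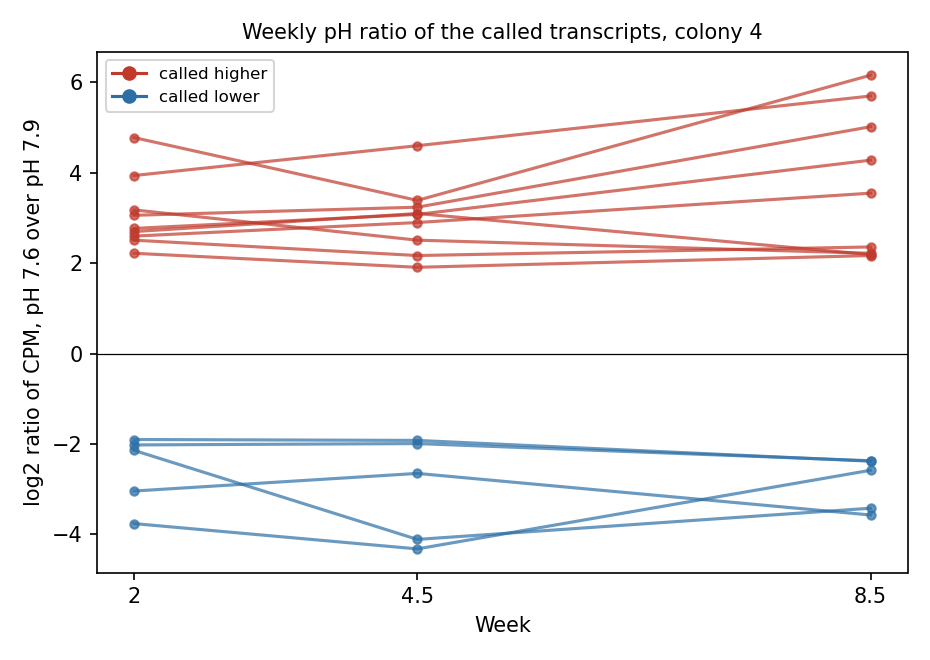
Log2 ratio of CPM (pH 7.6 over pH 7.9) at weeks 2, 4.5 and 8.5 for the 9 transcripts called higher (red) and the 5 called lower (blue) in colony 4, with 1 line for each transcript. All ratios of the 9 lie between 1.91 and 6.16 and those of the 5 between -4.32 and -1.9.

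A wider list was formed from the transcripts that were past 2-fold in the same direction in all 3 weeks. It held 277 transcripts higher at pH 7.6 (0.549% of those tested) and 260 lower (0.516%), and included all 14 calls. The list was formed after the values had been seen and is described without a test. The 277 had a median log2 fold change of 1.87 and a median level of 8.83 CPM at pH 7.6 and 2.39 CPM at pH 7.9. The 260 had a median log2 fold change of -1.76 and median levels of 1.11 and 3.9 CPM. Together the 277 made up 4770 to 14600 CPM in the pH 7.6 libraries and 1630 to 3710 CPM in the pH 7.9 libraries, and the 260 made up 646 to 2130 and 2210 to 6090 CPM. At least 4-fold in all 3 weeks, 14 were higher and 11 lower, of which 8 and 3 were called.

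The list also held a common pattern over time that was not used to form it. All 9 transcripts that rose with low pH had their lowest level at week 4.5 at both pH levels, and all 5 that fell had their highest level then. Of the 277, 187 (67.5%) were lowest at week 4.5 at both pH levels, against 11.4% of all tested transcripts. Of the 260, 202 (77.7%) were highest at week 4.5 at both, against 12.2% of all tested. The week 4.5 level of the 277 differed from the mean of weeks 2 and 8.5 by a median of -1.01 on the log2 scale at pH 7.6 and by -0.76 at pH 7.9. For the 260 these medians were 1.35 and 1.14. Across all tested transcripts the pH fold change and the week 4.5 difference had a Pearson correlation of -0.494, a description from the same 6 libraries, which enter both. With the week 4.5 difference taken from colonies 1 and 3 instead, the correlation across all tested transcripts was -0.0336.

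Libraries of colonies 1 and 3, which had no part in forming the list, were read for the same time course. There, 185 of 259 (71.4%) of the transcripts of the higher list had a lower mean at week 4.5 than over weeks 2 and 8.5, against 49.3% of all tested. Of the lower list, 189 of 245 (77.1%) had a higher mean at week 4.5, against 50.7% of all tested. Without the library that resembled colony 4 these shares were 73% and 78.4%.

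The weeks themselves were compared in colony 4 with pH as a term. EdgeR called 6 transcripts (0.0119% of 50425), with 4642 (9.21%) at an unadjusted p below 0.05. Of the 6, 3 were lowest and 2 highest at week 4.5 at both pH levels, and 1 of the 6 was also called for pH. DESeq2 called 1027 and limma-voom 11. Without week 2 edgeR called 1091 between the other 2 weeks. None of the 6 is named, because the test has no single direction.

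The pH effect of colony 4 was then set beside that of the other colonies, since the study holds genetically distinct colonies. In the 12 libraries of colonies 1 and 3, edgeR called 0 of 54472 transcripts for pH (0%), with 1600 at an unadjusted p below 0.05 (1.65% higher and 1.29% lower). Without the library that resembled colony 4, edgeR called 0 of 54088, with 1419 at an unadjusted p below 0.05. DESeq2 found 55 and limma-voom 0. With the colony label as a term beside week, edgeR also called 0 of 54472, with 1469 at an unadjusted p below 0.05. The main edgeR fit had no colony term, so differences between these colonies entered its error. Its common dispersion (spread between libraries beyond counting error) was 0.28, against 0.0748 in the fit of colony 4. The 0 and the 14 are therefore not on a like footing. Of the 9 transcripts that rose in colony 4, 8 were higher at pH 7.6 in colonies 1 and 3, 5 of them with an unadjusted p below 0.05. Of the 5 that fell, 4 could be tested and 3 were lower, with 0 at an unadjusted p below 0.05.

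The 2 largest rises of colony 4 were also large in the other colonies. Transcript_66519 was at 10 to 100 CPM in the 6 pH 7.6 libraries of colonies 1 and 3 and at 0.207 to 7.8 CPM in the 6 at pH 7.9, with no overlap. The difference there was 4.45 ± 0.75 in log2 units (SE; edgeR adjusted p = 0.978, unadjusted 8.2e-05), against 4.96 ± 0.49 in colony 4. Transcript_2635 was at 34.8 to 1120 CPM and 1.26 to 53.8 CPM, so that the groups overlapped. The 53.8 CPM came from the library that resembled colony 4, and the next highest at pH 7.9 was 34.8 CPM, the same as the lowest at pH 7.6 to the digits given. The difference over all 12 libraries was 4.68 ± 0.83 in log2 units (SE; edgeR adjusted p = 0.978, unadjusted 0.000126) against 4.76 ± 0.42. Neither was called in colonies 1 and 3.

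The 2 largest falls of colony 4 had other values there. Transcript_1396 was at 1.08 to 29.6 CPM at pH 7.6 and 1.23 to 44.2 CPM at pH 7.9 in colonies 1 and 3, with overlapping groups. The difference was -0.68 ± 0.85 in log2 units (SE; edgeR adjusted p = 1), against -3.69 ± 0.38 in colony 4. Transcript_6426 was near 0 in most of those libraries, at 0 to 0.0509 CPM at pH 7.6. At pH 7.9 it reached 7.67 CPM in the week 8.5 library labelled colony 1 and 1.81 CPM in the library that resembled colony 4, and it was at 0 CPM in the other 4. It did not pass the filter in those 12 libraries.

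The wider list of colony 4 had the same direction in the other colonies more often than all tested transcripts did. Of the 277 that were higher, 259 were tested and 232 (89.6%) were higher at pH 7.6, against 49% of all tested, with a median log2 fold change of 0.74 where colony 4 had 1.85. Of the 260 that were lower, 245 were tested and 203 (82.9%) were lower, against 51% of all tested, with medians of -0.5 and -1.71. An unadjusted p below 0.05 in the list's direction was found for 83 (32%) and 39 (15.9%), against 1.6% and 1.37% of all tested. Without the library that resembled colony 4, 225 of 257 (87.5%) were higher and 209 of 242 (86.4%) lower. The members of a list are not independent of each other, and no test was made of these shares.

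A pair of libraries of the other colonies that did sort by its label was read in the same way. In colony 1 at week 2, the pH 7.9 library correlated with the pH 7.6 libraries of colony 1 at a median of 0.972. In that pair 214 of the 259 (82.6%) were higher at pH 7.6 and 177 of the 245 (72.2%) lower, against 48.3% and 51.7% of all tested. The ratio was past 2-fold in the list's direction for 36.7% and 24.5%, against 3.43% and 2.55%.

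**Figure D5:**
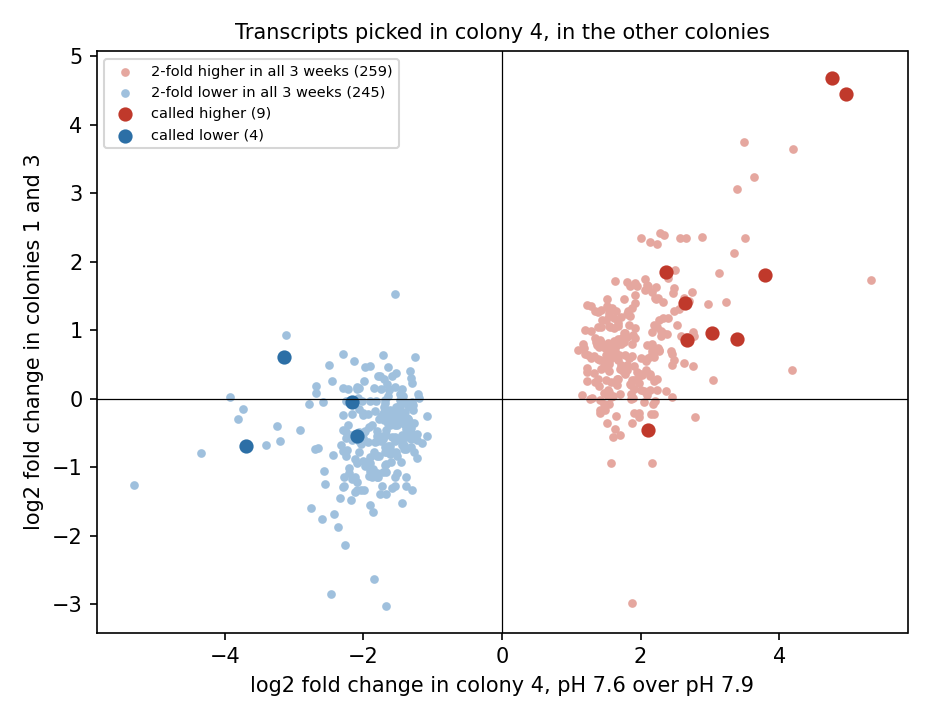
Log2 fold change (pH 7.6 over pH 7.9) in the 12 libraries of colonies 1 and 3 against that in colony 4, with 1 point for each transcript past 2-fold in all 3 weeks of colony 4 and tested in both (pale red, 259 higher; pale blue, 245 lower). Larger points are the 9 called higher and the 4 called lower that were tested in both, and 8 of those 9 lie above 0 on the vertical axis.

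A test of whether the pH effect of colony 4 differed from the mean of those of colonies 1 and 3 called 0 of 57053 transcripts (0%) by edgeR. An unadjusted p below 0.05 was found for 1871 (3.28%), and DESeq2 found 7 and limma-voom 0. The fit held a mean for each labelled colony and pH. Without the library that resembled colony 4, edgeR called 0 of 56932, with 2495 at an unadjusted p below 0.05. Over all 18 libraries, the median SE of the difference between colonies was 0.533 on the log2 scale. This test also missed the differences planted in simulated data, so its count of 0 does not show that the effects were alike. Among the 14 called in colony 4 the difference lay between -3.46 and 2.52, and 7 had an unadjusted p below 0.05. It pointed away from 0 in the direction of colony 4 for 13 of the 14, which were chosen for their size in colony 4. For Transcript_1396 the difference was -2.56 ± 0.85 (SE, edgeR adjusted p = 0.992), and for Transcript_2635 it was 0.42 ± 1.09 (SE, edgeR adjusted p = 0.996). The part of the pH 7.9 libraries that go against their labels in this error was not tested.

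The week 2, pH 7.9 library labelled colony 3 was also set beside colony 4, since it resembled it and had no part in its fit. It correlated at 0.977 with the week 2 library of colony 4 at pH 7.9 and at 0.919 with that at pH 7.6. For all 14 called transcripts its level was nearer to that of the pH 7.9 library of that week. By the same comparison with week 2 it was nearer to pH 7.9 for 243 of the 277 (87.7%) and 226 of the 260 (86.9%), against 69.6% of all tested. These lists, which include the 14, were chosen for at least 2-fold between the same week 2 libraries. Only 23.6% of all tested transcripts were past 2-fold there. The shares are therefore not comparable and give no separate evidence of a pH effect. Set instead against the mean of the 3 weeks at each pH, the colony 3 library was nearer to pH 7.9 for 7 of the 9 that rose and 2 of the 5 that fell. It had Transcript_2635 at 53.8 CPM and Transcript_66519 at 7.8 CPM, against 33.4 and 4.43 CPM in the week 2, pH 7.9 library of colony 4.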

How the data were processed

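Polyp RNA of colony 4 was compared between pH 7.6 and pH 7.9. The authors deposited raw counts of reads per transcript for 2 lanes of each of 18 libraries, from total RNA extracted with a Qiagen kit and single-end HiSeq 2500 reads, per the labels' protocols. Per the submitters' processing notes, the tools included Trimmomatic 0.36, cutadapt 1.15, FastQC and DESeq2. Which aligner, counter and transcript assembly were used is not given in the sources used here, so reads of near-identical transcripts may have been shared or dropped. The lanes were summed here. Time points 1 to 3 were matched to weeks 2, 4.5 and 8.5 in the order of the design text.

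Transcripts with at least 10 counts in 3 libraries were kept (50425 for colony 4; library totals 19971946 to 25135503), scaled by trimmed mean of M values, and tested with edgeR 4.0.16 (R 4.3.3) quasi-likelihood F tests with Benjamini-Hochberg adjustment over all tested transcripts. The model held week and pH (2 residual degrees of freedom). The slope test left 1. EdgeR added 6.38 prior degrees of freedom borrowed across transcripts, and 6.84 in the slope test. A pH difference that changed with week counted as error in the pH test. Each SE was taken as the absolute log2 fold change over the root of the F statistic. Weekly log2 ratios used a prior count of 2. Single-week folds have exact binomial 95% intervals that cover counting error only. Colonies 1 and 3 were fitted with week and pH. The difference between colonies was fitted to all 18 libraries, with a mean for each labelled colony and pH beside week. DESeq2 1.42.0 and limma 3.58.1 were alternatives. The procedure was also run on simulated data with planted 2-fold and 4-fold changes. Most of the 2-fold changes were missed, and the test of the difference between colonies missed all planted changes. The tests in colony 4 also made false calls. Absence of change is therefore not read from any count.

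Pairing comes from the labelled time point. The deviations of the libraries of a week from their pH means correlated at 0.0855, 0.189 and 0.222. The members, lists and tests were chosen with earlier results of these data known. Named transcripts were the 2 largest absolute fold changes in each direction among those called, with a mean of at least 1 log2 CPM and the same sign in all weeks. For single weeks they were the largest ratio in each direction with the same mean level and at least 100 counts in the higher library. The transcripts called between weeks were not named, since a test on 2 degrees of freedom has no single direction. The list past 2-fold in all weeks, the time course and the use of the colony 3 library that resembled colony 4 were chosen once the values were known.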

Additional observations from a re-analysis of the deposited data

How the results depend on the processing

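The count of 14 for pH in colony 4 was within 1.5 times under DESeq2 size factors, filterByExpr and a minimum of 50 counts. It was 77 with library totals alone, 491 with no filter, 1068 with DESeq2, 70 with limma-voom, 81 with robust edgeR, 52 with the non-legacy edgeR fit, 70 and 105 with lane 1 or lane 2 alone, 0 with no replicate block (the pairing by week), 0 with all 18 libraries, and 3 to 631 when a week was left out. The 4 named transcripts kept their direction wherever they were tested, and Transcript_6426 was not tested in 2 of 16 alternatives. The count of slopes was 28 with no filter and 33 with DESeq2. The count for weeks was 22 with DESeq2 size factors, 60 with totals, 558 with no filter, 3 with a minimum of 50 counts, 1027 with DESeq2, 11 with limma-voom, 41 robust, 30 non-legacy, 27 and 49 by lane, and 9 to 1091 without a week. DESeq2 gave 55 for pH in colonies 1 and 3 and 7 for the difference between colonies. At 1.5-fold and 4-fold the weekly counts were 23718 and 2076, 15122 and 567, and 14971 and 958. With only 2 weeks required, the lists held 534 to 1000 higher and 631 to 999 lower transcripts. The slope could not be fitted without a week, since no residual degree of freedom remains. Apart from what each alternative fits, the cause of these changes was not tested. Transcripts with few counts had wide errors at this depth.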
